A study of Mus musculus with 6 samples.

Results

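The cell cycle genes described here are 43 genes chosen by name, with no threshold on their values: 23 genes of mitosis, 11 of DNA synthesis (S phase) and 9 of the G1 phase, among them cyclins and Cdk inhibitors, with Cdkn1a left out. They were measured in RNA of collecting duct cells isolated from kidneys of male C57BL/6J mice, with 3 libraries from mice fed a low-NaCl chow (0.01 to 0.02% sodium) and 3 from mice fed a high-NaCl chow (2.4% sodium), each for 5 days. The comparison is of low against high salt, with no group on an ordinary diet. The sources used here give no age, no way of isolating the cells and no number of animals behind a library. The p-values are therefore about variation among these libraries, part of which may be technical. All 43 genes had at least 1 counted identifier among the 24788 genes of the files, 37 had at least 1 count, and 29 were among the 10518 genes abundant enough to test. These 29 were 13 mitotic, 9 S-phase and 7 G1 genes.

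Libraries held 40101899 to 46861531 counts, of which 20.5 to 29.9% were mitochondrial, with the highest shares in high-NaCl libraries 1 and 3. By lane, the first library of either diet was sequenced in lane 1, the remaining low-NaCl libraries in lane 2 and the remaining high-NaCl libraries in lane 3, so that lane 1 alone allows a comparison of the diets within a lane. Reads in exons shared by several transcripts of the annotation were not counted, and each gene therefore has a countable share, the percentage of its exonic bases that belong to a single transcript. Markers of principal cells, which take up sodium and water, summed to 3121 to 4762 CPM (a gene's counts divided by the library's scaled total and given per 1000000 counts) on the low-NaCl diet and to 8773 to 10930 CPM on the high-NaCl diet. Markers of acid- and base-secreting intercalated cells summed to 2597 to 4941 against 1738 to 1942 CPM, and proximal tubule markers to 1726 to 3453 against 960 to 2185 CPM. Nearly all of the proximal tubule sum was Aqp1, at 3447, 1705 and 2632 against 1537, 939 and 2170 CPM. The next highest of these markers, Lrp2, had means of 15.8 against 13.1 CPM, so the sum describes Aqp1 more than the list.

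A dividing cell passes G1, copies its DNA in S phase and separates the copies in mitosis. D-type cyclins with their kinases release E2F transcription factors from the RB protein in G1, E2F raises genes of DNA synthesis, and cyclins A and B with the kinase Cdk1 drive mitosis before the anaphase-promoting complex destroys them. Most cells of the adult kidney tubule are at rest, so transcripts of mitosis are rare in it.

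On the low-NaCl diet 7 of the 29 tested genes were lower and 0 were higher by edgeR's quasi-likelihood test at an adjusted p under 0.05. Over all genes tested, 1.7% were called lower and 1.7% higher. The 7 were the mitotic genes Ccna2, Cdk1, Cdc20 and Cenpf, the S-phase gene Tk1, and the G1 genes Ccnd1 and E2f1. At an unadjusted p under 0.05, 17 genes were lower, against 9.12% of all genes tested, and 1 (Ccnd2) was higher. DESeq2 called 11 of the 29 lower and 1 higher, against 442 lower and 403 higher of all 10518 genes. With limma-voom 6 were lower and 0 higher, against 159 lower and 147 higher of all 10518. In 14 genes every low-NaCl library lay below every high-NaCl library, against 11.6% of all genes tested. In 1 gene, Ccnd2, every low-NaCl library lay above, against 12.3% of all genes. The median log2 fold change (low-NaCl minus high-NaCl) was -1.65 over the 13 mitotic genes, -0.36 over the 9 S-phase genes, -0.32 over the 7 G1 genes and -0.00 over all genes tested. Within lane 1 these medians were -0.62, 0.05, -0.34 and 0.01. With lane as a term in the fit, 0 of the 29 genes were called and 5 were lower at an unadjusted p under 0.05. That fit called 3 of all 10518 genes. Because genes enter the test through the libraries in which they are high, the counts and medians over tested genes are a description: Top2a, Plk1, Aurkb and Cenpe reached the minimum level in only 1 or 2 low-NaCl libraries, and the other 25 in all 3.

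**Figure D1:**
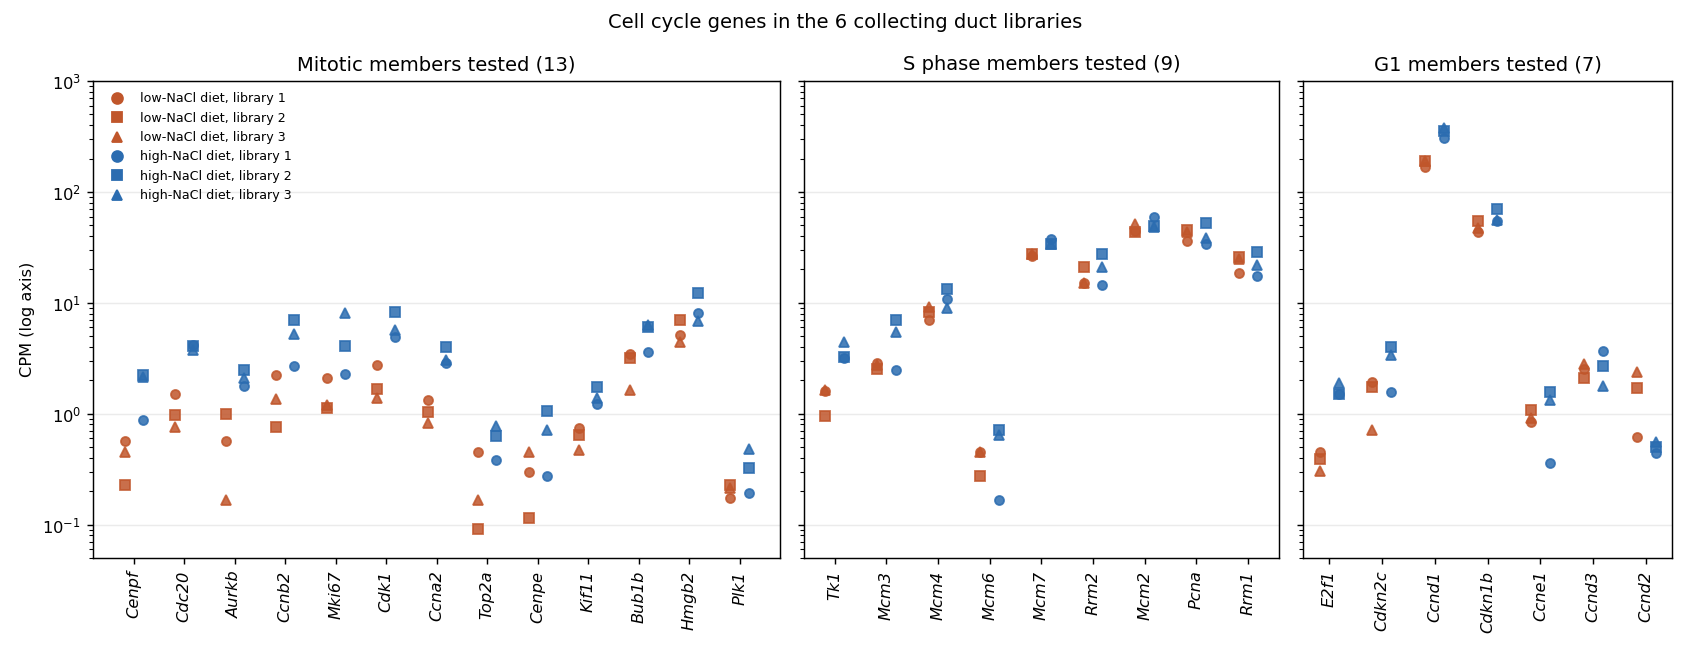
Level of each tested cell cycle gene in CPM (log axis) in each of the 6 libraries; colours are diets and symbols are library numbers, with 3 panels for the mitotic, S-phase and G1 genes. Mitotic genes lie between 0.0911 CPM (Top2a) and 12.2 CPM (Hmgb2), mostly with the high-NaCl libraries above, Pcna and Mcm2 lie at 34.0 to 58.9 CPM with the diets intermixed, and Ccnd1 stands above all others.

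Promoters of the genes are shown because the medians of mitotic and S-phase genes lay apart, a difference that was not tested, and such genes are known to differ in promoter elements. Mitotic promoters often carry a cell cycle genes homology region (CHR, TTTGAA) downstream of CCAAT boxes (CCAAT), and S-phase promoters an E2F site. The E2F site was searched as TTCCCGC and also by a form written TTGGCGC and by another form written TTCGCGC. The 250 bases before each transcription start in the RefSeq promoter table (GRCm38.p6, the mm10 assembly) were searched for these letters on both strands, and 34 of the 43 genes had an entry. The 9 others were Ccna2, Aurkb, Kif20a, Tpx2, Mcm4, Ccne2, Ccnd1, Ccnd2 and Cdkn1c. In the windows below, of the 150 bases before the start and read 5' to 3' on the gene's strand, capitals mark the matches; a TTGGCGC can share bases with a CCAAT box on the other strand, but none did here. Cdk1 (chr10:69352913-69353062, minus strand), Cdc20 (chr4:118437344-118437493, minus) and Mki67 (chr7:135716380-135716529, minus) stand for the mitotic genes. Mcm2 (chr6:88898781-88898930, minus) and Rrm1 (chr7:102441545-102441694, plus) stand for the S-phase genes with little difference between diets.
Cdk1: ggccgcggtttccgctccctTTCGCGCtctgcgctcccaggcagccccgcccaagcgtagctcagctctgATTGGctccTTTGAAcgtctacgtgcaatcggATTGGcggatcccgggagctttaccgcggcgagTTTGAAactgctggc
Cdc20: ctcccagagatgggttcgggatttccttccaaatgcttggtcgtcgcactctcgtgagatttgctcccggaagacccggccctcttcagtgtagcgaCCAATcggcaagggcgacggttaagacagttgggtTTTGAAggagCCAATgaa
Mki67: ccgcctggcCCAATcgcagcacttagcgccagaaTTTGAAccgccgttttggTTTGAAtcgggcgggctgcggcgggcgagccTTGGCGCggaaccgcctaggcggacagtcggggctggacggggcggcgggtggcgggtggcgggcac
Mcm2: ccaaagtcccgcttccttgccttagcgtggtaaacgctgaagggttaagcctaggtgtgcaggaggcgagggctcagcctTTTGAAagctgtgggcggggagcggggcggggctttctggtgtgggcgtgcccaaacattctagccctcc
Rrm1: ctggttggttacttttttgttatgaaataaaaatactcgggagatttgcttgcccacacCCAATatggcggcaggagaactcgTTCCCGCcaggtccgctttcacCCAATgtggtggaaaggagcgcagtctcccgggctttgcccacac
The Cdk1 window holds 2 CHR, 2 CCAAT and 1 E2F match, that of Cdc20 1 CHR and 2 CCAAT, and that of Mki67 2 CHR, 1 CCAAT and 1 E2F match. The window of Rrm1 holds 2 CCAAT and 1 E2F match and no CHR, and that of Mcm2 a CHR and neither of the others.

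Over the 250 bases, the CHR letters stood before 9 of the 19 mitotic genes with an entry, 1 of 10 S-phase genes (Mcm2) and 0 of 5 G1 genes, against 18.3% of 27025 genes of the table. CCAAT stood before 17 of 19 mitotic, 8 of 10 S-phase and 2 of 5 G1 genes, against 37.5% of the table. The E2F letters stood before 3 of 19 mitotic, 4 of 10 S-phase and 1 of 5 G1 genes, against 7.68%. Among the 7 genes called lower, 5 had an entry. Cdk1 and Cdc20 held CHR and CCAAT, Cenpf held CCAAT, and E2f1 and Tk1 held none of these letters. The letters were thus present in genes with a large difference and in genes with little, as the windows of Mcm2 and Rrm1 show.

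Of the mitotic cyclins and their kinase, Ccna2 and Cdk1 were lower on low salt, Ccnb2 did not pass the test and Ccnb1 was too rare for it. Ccna2 (chr3:36564865-36572150, mm10), the A-type cyclin of S phase and mitotic entry, measured 1.32, 1.02 and 0.826 CPM in low-NaCl libraries 1 to 3 and 2.89, 4.02 and 3.03 CPM in high-NaCl libraries 1 to 3. No low-NaCl library reached the lowest high-NaCl one, and the log2 fold change was -1.65 ± 0.27 (SE; adjusted p = 0.0153). Cdk1 (chr10:69335146-69352938), the kinase that cyclins A and B activate for mitosis, measured 2.73, 1.66 and 1.39 CPM on low NaCl and 4.87, 8.19 and 5.69 CPM on high NaCl, and its log2 fold change was -1.70 ± 0.30 (adjusted p = 0.0224). Within lane 1 the differences were smaller, -1.13 for Ccna2 and -0.83 for Cdk1.

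Ccnb2, a B-type cyclin and partner of Cdk1, measured 2.21, 0.751 and 1.37 CPM against 2.69, 7.04 and 5.24 CPM. The diets did not overlap, but library 1 of the high-NaCl diet lay close to library 1 of the low-NaCl diet, and the difference of -1.80 ± 0.43 missed the threshold (adjusted p = 0.0553; -0.28 within lane 1). The main B-type cyclin, Ccnb1, is 7.90% countable and was too rare to test. Its counts were 0, 1 and 1 on low NaCl and 10, 16 and 7 on high NaCl, a high to low ratio of 16.5 with an exact 95% interval of 4.23 to 142 for counting error only. With no filter on low counts its log2 fold change was -3.80 (edgeR adjusted p = 0.0452). Both B-type cyclins thus had their lowest values in low-NaCl libraries, with few counts behind Ccnb1.

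Cdc20 (chr4:118432901-118437352, 44.0% countable), the activator of the anaphase-promoting complex that ends the spindle checkpoint, measured 1.52, 0.979 and 0.755 CPM on low NaCl and 4.15, 4.05 and 3.75 CPM on high NaCl. The high-NaCl values lay close together, all above every low-NaCl value, and the log2 fold change was -1.88 ± 0.28 (adjusted p = 0.0109; -1.45 within lane 1). Bub1b, a checkpoint kinase that restrains Cdc20, measured 3.45, 3.19 and 1.63 against 3.57, 6.02 and 6.28 CPM. The lowest high-NaCl value lay just above the highest low-NaCl value, and the difference did not pass (-0.94 ± 0.32, adjusted p = 0.151; -0.05 within lane 1).

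At kinetochores and spindle, Cenpf (chr1:189640606-189688086, 54.3% countable), a large kinetochore protein of G2 and mitosis, measured 0.571, 0.228 and 0.448 CPM against 0.880, 2.22 and 2.13 CPM, and its log2 fold change was -2.07 ± 0.46 (adjusted p = 0.0403; -0.62 within lane 1). The high-NaCl level of library 1 was less than that of libraries 2 and 3, as for Ccnb2. The kinesin Kif11, which separates the spindle poles, measured 0.745, 0.638 and 0.472 against 1.21, 1.72 and 1.38 CPM, and its difference of -1.22 ± 0.31 had an adjusted p of 0.0690. Cenpe, a kinetochore motor, overlapped between diets, at 0.298, 0.114 and 0.448 against 0.275, 1.05 and 0.718 CPM (-1.26 ± 0.60, adjusted p = 0.304).

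Among the other mitotic regulators, the chromosome passenger kinase Aurkb measured 0.571, 1.0 and 0.165 against 1.76, 2.47 and 2.10 CPM, with a difference of -1.86 ± 0.49 (adjusted p = 0.0732; -1.62 within lane 1). Mki67, which encodes the proliferation antigen Ki-67, measured 2.11, 1.12 and 1.2 against 2.28, 4.09 and 8.09 CPM. Its high-NaCl values ranged most widely, and high-NaCl library 1 lay just above low-NaCl library 1, without overlap. The difference of -1.71 ± 0.45 missed the threshold (adjusted p = 0.0710, and -0.11 within lane 1). Hmgb2, a chromatin protein that is also expressed outside mitosis, measured 5.12, 7.01 and 4.43 against 8.14, 12.2 and 6.89 CPM (-0.72 ± 0.26, adjusted p = 0.177). Top2a, the topoisomerase that untangles sister chromatids, is 35.4% countable and measured 0.0911 to 0.447 against 0.385 to 0.771 CPM (-1.35 ± 0.58, adjusted p = 0.256). Plk1, a kinase of spindle assembly, is 21.8% countable and measured 0.174 to 0.228 against 0.192 to 0.479 CPM (-0.69 ± 0.50, adjusted p = 0.514). All 13 tested mitotic genes had a negative estimate, as did 50.2% of all genes tested. In 9 of the 13 every low-NaCl library lay below every high-NaCl one, against 11.6% of all genes tested.

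The remaining 10 mitotic genes were below the filter. Besides Ccnb1, Prc1, which bundles the central spindle, had counts of 0, 6 and 2 against 3, 13 and 7, and Cenpa, the centromeric histone, 1, 1 and 0 against 3, 3 and 0. Birc5, a chromosome passenger protein, had 1, 2 and 0 against 1, 3 and 1 counts although 71.5% of it was countable. Kif20a and Nusap1 had at most 1 count in any library. Bub1, Aurka, Tpx2 and Ube2c were listed at 0 in all 6 libraries, with countable shares of 10.6, 5.04, 1.18 and 0.752%, so their levels are not known from these files.

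**Figure D2:**
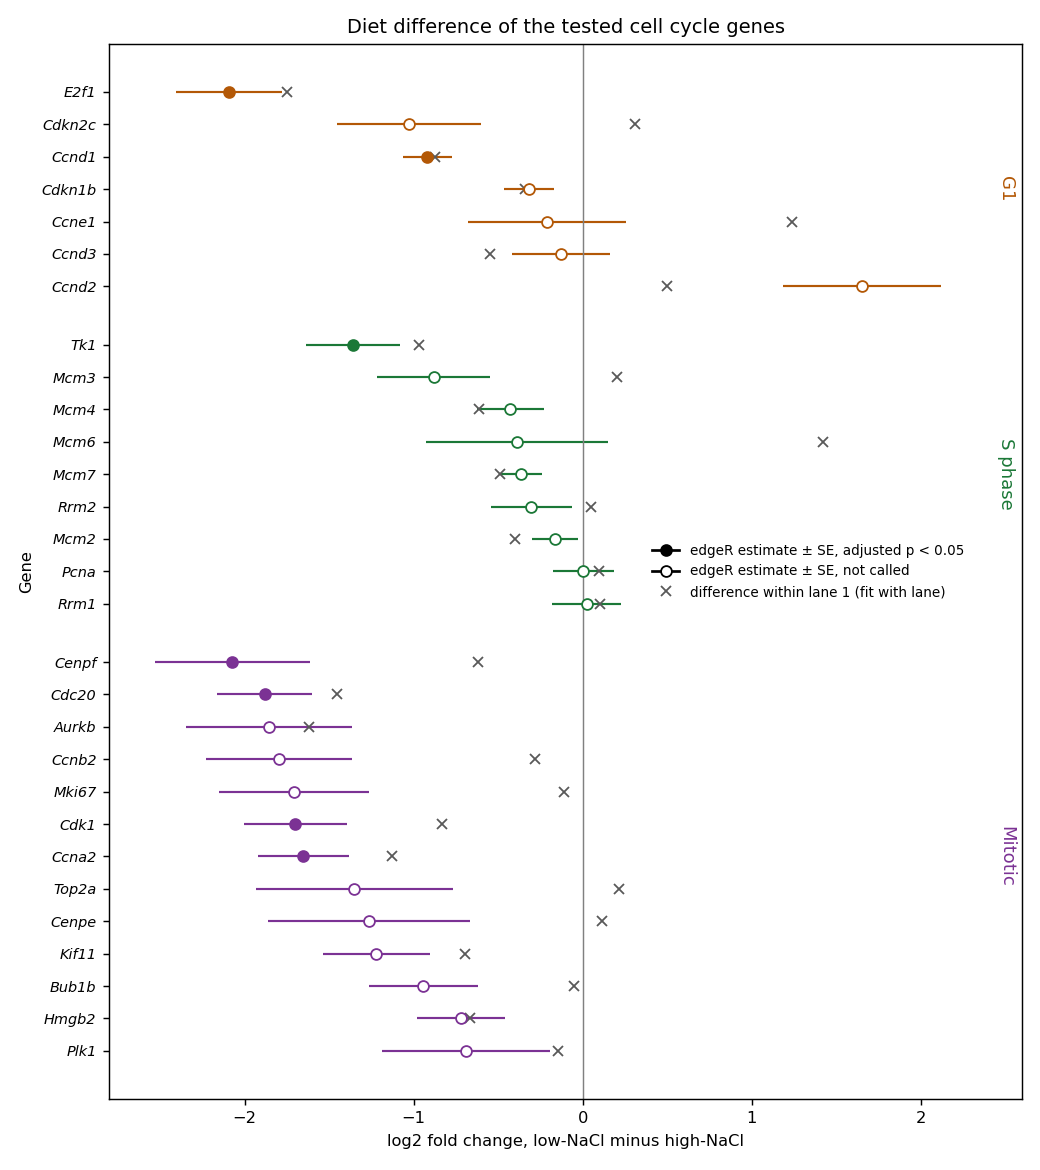
Log2 fold change (low-NaCl minus high-NaCl) of the 29 tested cell cycle genes with its standard error, filled where the adjusted p was under 0.05; crosses give the difference within lane 1. All 13 mitotic estimates lie left of 0, Pcna and Rrm1 lie at 0, and many crosses lie nearer to 0 than the estimate.

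Summed over all 23 mitotic genes, the level was 21.3, 18.3 and 13.6 CPM on low NaCl (17.7 ± 3.88, SD, n = 3) and 33.8, 54.7 and 47 CPM on high NaCl (45.1 ± 10.6, SD, n = 3), 2.55 times as much. The principal cell markers differed by a like factor, 2.42. Most of the marker sum was Aqp2, with means of 2870 against 6962 CPM. Aqp3, with means of 874 against 2102 CPM, supplied most of the rest. Set against the marker sum, the mitotic sum was 4.48, 5.85 and 3.19 CPM per 1000 marker CPM on low NaCl and 3.09, 5.63 and 5.35 on high NaCl, so the diets overlapped. The ratio therefore describes Aqp2 and Aqp3 more than the whole marker list. Other markers were higher on low NaCl: 5 thick limb and distal convoluted tubule markers summed to 95.3 to 108 against 47.4 to 67.5 CPM, with Slc12a1 called (0.92 ± 0.15, adjusted p = 0.0159). The injury marker Lcn2 measured 74.1, 171 and 156 against 30.3, 31.7 and 29.3 CPM (2.14 ± 0.27, adjusted p = 0.0066). The 6 injury markers summed to 1492 to 4029 against 3029 to 3345 CPM. Most of that sum was Clu, at 1416, 2513 and 3854 against 3312, 3073 and 2996 CPM. Spp1 (means 1.07 against 0.609 CPM) and Vcam1 (10.5 against 3.88 CPM) were higher on low NaCl, Vcam1 with overlap. Neither they nor Clu were called, and Havcr1 and Krt20 were too rare to test. In such bulk RNA, fewer cells of a type and less RNA per cell cannot be told apart, and the part of the content of these cell types or of injury in the mitotic difference was not tested. Among 8 endothelial markers, the summed level was 0.495 to 2.36 against 3.46 to 3.52 CPM, with Pecam1, Emcn and Tek at 0 in all libraries and none of the 4 tested markers called. Among 12 leukocyte markers, Ptprc, Cd68, Adgre1 and Itgam were at 0 in all libraries and the sum was 0.342 to 0.770 against 0.605 to 0.995 CPM. Of these zeros, 65.9% of Emcn was countable, against 19.2% or less of the others, so they say little. The remaining leukocyte markers, among them the fully countable Lyz2, C1qa, C1qb and Cd3e, were near 0. The part of endothelial cells and leukocytes in the result was not tested.

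**Figure D3:**
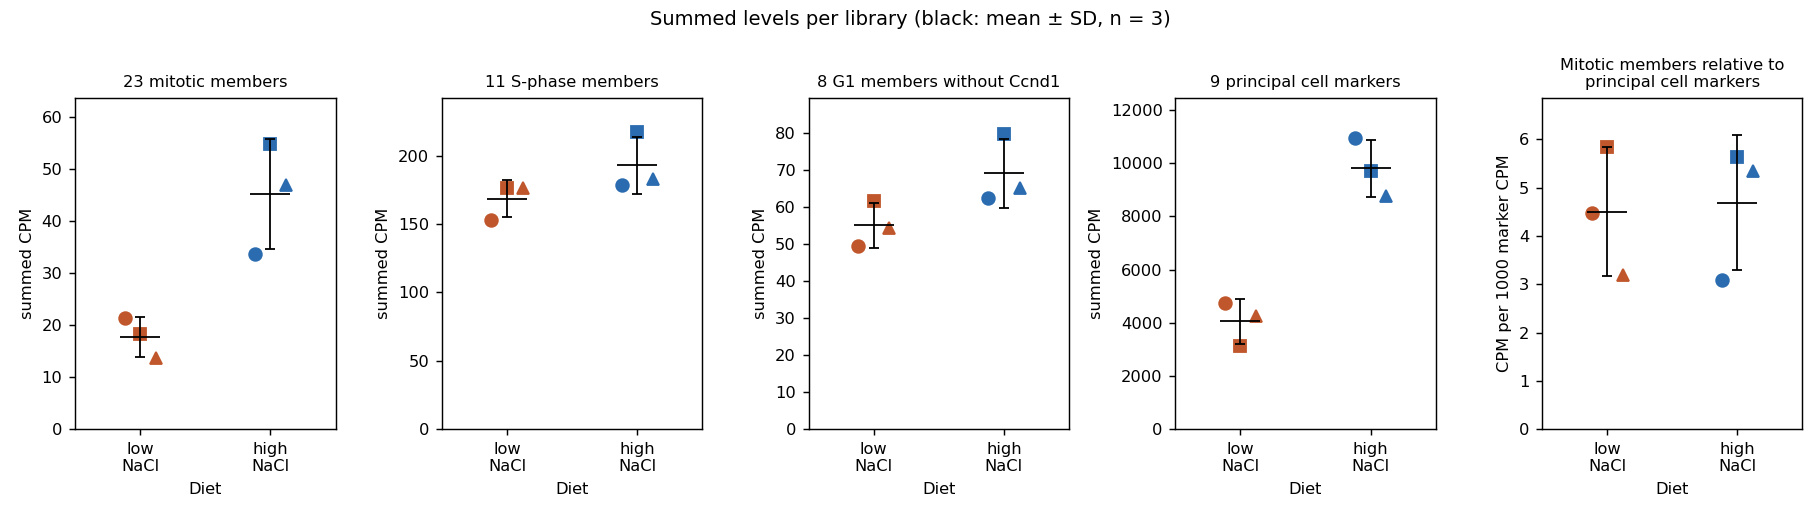
Summed level per library (points; symbols are library numbers) with mean and SD (n = 3) for the mitotic genes, the S-phase genes, the G1 genes without Ccnd1 and the principal cell markers, in CPM, and for the mitotic genes per 1000 principal marker CPM. The mitotic sum and the marker sum are apart between diets, at 13.6 to 21.3 against 33.8 to 54.7 CPM and at 3121 to 4762 against 8773 to 10930 CPM, and their ratio overlaps.

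Of the 9 tested S-phase genes, Tk1 alone was called, and 3 (Tk1, Mcm7 and Mcm3) were lower at an unadjusted p under 0.05. Of the replicative helicase, which opens the DNA ahead of the fork, Mcm7 measured 26.5, 27.8 and 27.6 CPM on low NaCl and 37.2, 34.1 and 34.0 CPM on high NaCl. The diets were apart in every library, but the difference was small and did not pass (-0.36 ± 0.12, adjusted p = 0.146; -0.49 within lane 1). Mcm2 measured 44.7, 43.9 and 51.4 against 58.9, 49.5 and 48.4 CPM (-0.16 ± 0.14, adjusted p = 0.576). Mcm3 (2.50 to 2.88 against 2.50 to 7.02 CPM; -0.88 ± 0.33, adjusted p = 0.196) and Mcm4 (7.06 to 9.20 against 8.96 to 13.2 CPM; -0.43 ± 0.20, adjusted p = 0.287) overlapped between diets. Mcm6, 33.6% countable, was under 1 CPM in all libraries (-0.39 ± 0.54, adjusted p = 0.756). Mcm5 was listed at 0 with a countable share of 2.86%.

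Pcna, the sliding clamp of the DNA polymerases, measured 36.3, 45.7 and 43.2 CPM against 34.0, 52.7 and 38.2 CPM, a difference of 0.00 ± 0.18 on the log2 scale (adjusted p = 0.995). High-NaCl library 1 lay below every low-NaCl library, library 2 above them, and library 3 within their range. The subunits of ribonucleotide reductase, which makes deoxynucleotides, behaved likewise: Rrm1 measured 18.7, 26.0 and 24.6 against 17.4, 28.7 and 22.1 CPM (0.02 ± 0.20, adjusted p = 0.966). Rrm2, its S-phase-limited subunit, measured 15.0, 20.9 and 15.2 against 14.5, 27.6 and 20.9 CPM (-0.30 ± 0.24, adjusted p = 0.552). The exception was Tk1 (chr11:117815526-117826092), the thymidine kinase of the salvage pathway in dividing cells, at 1.61, 0.956 and 1.65 against 3.16, 3.25 and 4.42 CPM. Its log2 fold change was -1.36 ± 0.28 (adjusted p = 0.0335; -0.97 within lane 1), with no overlap between diets. Tyms, thymidylate synthase, is 3.10% countable and had 0 to 4 counts per library. The 11 S-phase genes together summed to 153, 176 and 176 CPM on low NaCl and 179, 217 and 183 CPM on high NaCl, 1.14 times as much. Mcm2 and Pcna supplied the most to these sums, and the mitotic sum lay below the S-phase sum in every library. The sums are not scaled to countable length, and both groups hold genes with a small countable share, so they do not rank the groups by level.

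In G1, cyclin D1 was the most abundant of the 43 genes in CPM and was lower on low salt. Ccnd1 (chr7:144929931-144939925, 61.1% countable), the D-type cyclin that couples growth signals to RB, measured 168, 192 and 192 CPM on low NaCl (184 ± 14, SD, n = 3) and 307, 355 and 380 CPM on high NaCl (347 ± 37.3, SD, n = 3). The log2 fold change was -0.92 ± 0.14 (adjusted p = 0.0130), and lane 1 gave a similar -0.87. E2f1 (chr2:154559407-154569892), the activating E2F factor downstream of RB, measured 0.447, 0.387 and 0.307 CPM on low NaCl and 1.51, 1.49 and 1.89 CPM on high NaCl, with a wide gap between the diets. Its log2 fold change was -2.09 ± 0.31 (adjusted p = 0.0109; -1.75 within lane 1).

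The other D-type cyclins did not follow Ccnd1. Ccnd2 measured 0.621, 1.71 and 2.38 CPM on low NaCl and 0.440, 0.497 and 0.559 CPM on high NaCl, the opposite direction, with low-NaCl library 1 close to the high-NaCl values. Its difference of 1.65 ± 0.46 missed the threshold (adjusted p = 0.0902; 0.50 within lane 1). Ccnd3 measured 2.10 to 2.83 against 1.78 to 3.71 CPM (-0.13 ± 0.29, adjusted p = 0.851). Ccne1, the cyclin of the G1 to S transition, measured 0.845 to 1.07 against 0.357 to 1.57 CPM (-0.21 ± 0.47, adjusted p = 0.850), and Ccne2 was listed at 0 with a countable share of 5.94%. Whether the D-type cyclins differ from each other in their response was not tested.

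Of the Cdk inhibitors, Cdkn1b (p27), which holds cells at rest, measured 43.1, 54.5 and 47.1 CPM against 54.7, 69.6 and 56.2 CPM. The diets were apart by a narrow margin and the difference did not pass (-0.32 ± 0.15, adjusted p = 0.296). Cdkn2c (p18), an inhibitor of the cyclin D kinases, measured 1.94, 1.73 and 0.708 against 1.57, 3.96 and 3.35 CPM (-1.03 ± 0.42, adjusted p = 0.235; 0.31 within lane 1). Cdkn1c (p57) is 1.96% countable and had 1 count on low and 5 on high NaCl. Neither tested inhibitor was called, and Cdkn2c alone had an unadjusted p under 0.05 (0.0370). Without Ccnd1, the G1 genes summed to 49.5, 61.6 and 54.3 CPM on low NaCl and 62.4, 79.8 and 65.1 CPM on high NaCl, 1.25 times as much.

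Levels were compared between genes per kilobase of countable exon, for genes at least 50% countable. On the low-NaCl diet Ccnd1 stood at 65.1 CPM per kb, Pcna at 33.1, Cdkn1b at 14.8, Mcm2 at 13.8, Mcm7 at 10.6, Rrm2 at 7.81 and Rrm1 at 6.33. Of the mitotic genes Hmgb2 reached 2.05 CPM per kb, Ccnb2 0.937, Cdk1 0.674 and Mki67 0.147, and E2f1 stood at 0.162. On the high-NaCl diet Ccnd1 stood at 123 CPM per kb, Pcna at 33, Hmgb2 at 3.37, Ccnb2 at 3.24, Cdk1 at 2.18, E2f1 at 0.695 and Mki67 at 0.478. On each diet these 4 mitotic genes lay below Mcm2, Mcm7, Rrm1 and Rrm2, but not all of them lay below Mcm3, Mcm4 and Tk1. On the high-NaCl diet Mcm4 stood at 3.07, Tk1 at 2.82 and Mcm3 at 1.98 CPM per kb, below both Hmgb2 and Ccnb2. Cdk1 lay above Mcm3 there. On the low-NaCl diet Hmgb2 lay above Tk1 and Mcm3 and below Mcm4. The order of Hmgb2, Ccnb2 and Cdk1 was the same on each diet. Pcna and Ccnb1 have processed pseudogenes in the annotation, and a loss or gain of reads to these copies was not tested.

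Calls depended on single libraries. Leaving out low-NaCl library 2 ended all 7 calls (adjusted p from 0.0524 to 0.156), and leaving out low-NaCl library 3 ended all but those of Cdc20 and E2f1. Without high-NaCl library 3 Cdc20 alone was called. Tk1 was also lost without high-NaCl library 1 (adjusted p = 0.0563) and Cenpf without high-NaCl library 2 (0.0681). Left without each library in turn, Cdc20 was called in 5 of 6 fits, E2f1 in 4, Ccna2, Cdk1 and Ccnd1 in 3, and Cenpf and Tk1 in 2, with the direction unchanged in all of them. Mki67 and Ccnb2 were called, as lower, without low-NaCl library 1 or without high-NaCl library 1. Ccnd2 was called as higher without low-NaCl library 1 (adjusted p = 0.0117), and Mcm3 as lower without high-NaCl library 1 (0.0391). Without high-NaCl libraries 1 and 3, which had the highest mitochondrial shares, Ccna2, Cdk1 and Ccnd1 were still called and Mcm3 was called in addition, 4 genes in all, whereas Cdc20, Cenpf, Tk1 and E2f1 were not. The log2 fold changes of those 4 were then -1.92, -2.43, -1.23 and -1.98, against -1.88, -2.07, -1.36 and -2.09 over all libraries.

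Other cell cycle genes were taken from 4 further lists. Of 47 further mitotic genes 24 were tested, and 5 were lower and 0 higher by edgeR, against 1.7% of all genes tested in either direction. At an unadjusted p under 0.05, 13 of the 24 were lower, against 9.12% of all genes tested, and 0 were higher. Their median log2 fold change was -1.0, as a description: 2 of the 24 passed the filter through their high-NaCl libraries alone, and 3 more were under the minimum in some low-NaCl library. Ckap2, a spindle microtubule protein, measured 0.273, 0.159 and 0.283 against 1.48, 1.80 and 1.60 CPM (-2.76 ± 0.35, adjusted p = 0.0066). Pbk, a mitotic kinase, measured 1.91, 2.0 and 0.425 against 4.76, 6.87 and 6.70 CPM (-2.08 ± 0.45, adjusted p = 0.0393). Cdca3, which promotes mitotic entry, measured 7.83, 3.58 and 3.30 against 16.7, 16.2 and 18.1 CPM (-1.80 ± 0.31, adjusted p = 0.0184). Cdca8, of the chromosome passenger complex (-1.43 ± 0.28, adjusted p = 0.0280), and Kif22, a chromosome-arm kinesin (-1.39 ± 0.26, adjusted p = 0.0241), were also lower. In 15 of the 24, these 5 among them, every low-NaCl library lay below every high-NaCl one, against 11.6% of all genes tested. Foxm1, a transcription factor of G2 and mitotic genes, measured 4.15, 2.28 and 2.34 against 5.06, 6.35 and 6.44 CPM and was not called (-1.03 ± 0.27, adjusted p = 0.0701).

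Of 45 further replication genes 21 were tested and 1 was lower, against 1.7% of all genes, with a median of -0.44. At an unadjusted p under 0.05, 7 of the 21 were lower, against 9.12% of all genes tested, and 0 were higher. In 10 of the 21 every low-NaCl library lay below every high-NaCl one, against 11.6% of all genes tested. The called gene was Asf1b, a histone chaperone of proliferating cells, at 1.61, 1.62 and 1.77 against 3.30, 3.61 and 4.92 CPM (-1.24 ± 0.23, adjusted p = 0.0253). Of 31 further G1 and RB-E2F genes 20 were tested, with 1 lower and 1 higher, against 1.7% of all genes in each direction, and a median of 0.02. Of the 20, 2 were lower at an unadjusted p under 0.05, against 9.12% of all genes tested, and 2 were higher. E2f2, a close relative of E2f1, measured 2.98, 2.19 and 3.99 against 13.3, 11.2 and 9.23 CPM (-1.88 ± 0.25, adjusted p = 0.0074; -2.15 within lane 1). Wee1, the kinase that keeps Cdk1 inactive, was the gene that rose, at 41.5, 48.8 and 35.0 against 20.7, 26.7 and 21.2 CPM (0.87 ± 0.17, adjusted p = 0.0266; 1.0 within lane 1). Of 12 genes of cell cycle exit and arrest 11 were tested and 2 were lower, against 1.7% of all genes, and the median was -0.04. Of the 11, 3 were lower at an unadjusted p under 0.05, against 9.12% of all genes tested, and 0 were higher. Gadd45b, a stress-induced growth arrest gene, measured 28.4, 31.8 and 24.6 against 50.4, 56.5 and 65.8 CPM (-1.03 ± 0.15, adjusted p = 0.0109). Cdkn3, a phosphatase that acts on cyclin-dependent kinases, measured 0.248, 0.159 and 0.0708 against 1.02, 0.746 and 0.692 CPM (-2.34 ± 0.49, adjusted p = 0.0346), and passed the filter through its high-NaCl libraries. Of these 10 calls, those of Ckap2 and E2f2 held without each library in turn.

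**Figure D4:**
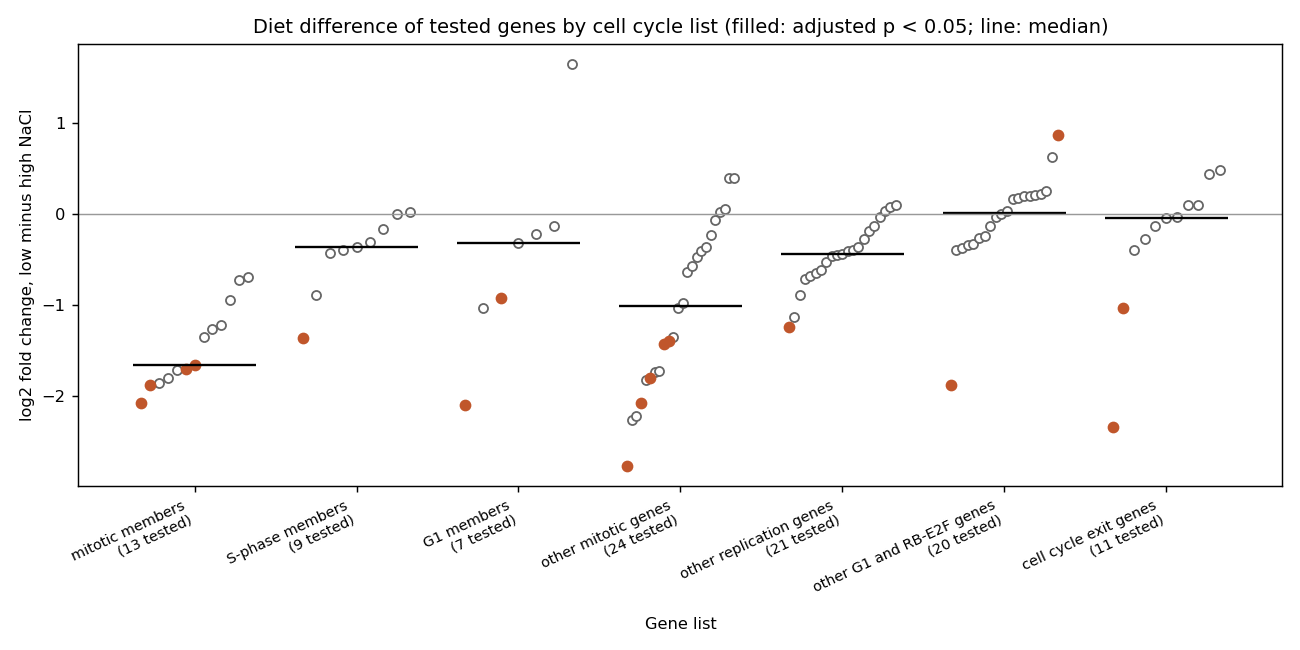
Log2 fold change (low-NaCl minus high-NaCl) of each tested gene in the 3 groups of cell cycle genes and the 4 further lists; filled points have an adjusted p under 0.05 and lines are medians. The medians of the mitotic lists lie at -1.65 and -1.0, those of the S-phase and replication lists at -0.36 and -0.44, and those of the further G1 and exit lists near 0.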

How the data were processed

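RNA of collecting duct cells was counted in 6 libraries, 3 per diet. The deposited values are raw read counts per UCSC transcript of mm10, which the authors made with featureCounts 1.5.0-p3, per the file headers. The headers show no setting for strand or for overlapping features, and by default the program then ignores strand and drops reads shared by several identifiers. FastQC, Subread and edgeR are named in the submitters' processing notes. The aligner is not given in the sources used here.

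Of 59121 identifiers, 52383 matched a GENCODE M21 gene on the same strand by at least 50% of their exonic bases, and their counts were added up for 24788 genes. Unmatched identifiers held 5.65% of counts and were used for library totals alone. The design had assumed counts per gene. Diets were compared in R 4.3.3 with edgeR 4.0.16 (limma 3.58.1), and tables were made in Python 3.11.15. Scaling was by TMM, filterByExpr kept genes with about 0.244 CPM in 3 libraries, and the robust quasi-likelihood test was adjusted by Benjamini-Hochberg over 10518 genes. A called gene has an adjusted p under 0.05. CPM values use TMM-scaled totals, and the SE comes from the F statistic. The biological coefficient of variation was 21.6%.

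The genes and lists were chosen with earlier results of these data known. All 43 genes are accounted for, and each called gene of the 4 further lists is named. Foxm1 was named after its values were seen. Sums, medians and counts over genes are descriptions without a test. On simulated counts of 10291 genes for this comparison, 67% of 2-fold and 97% of 4-fold changes were recovered, and 10.9% of 184 calls were false. Recovery was not broken down by expression level, so it is not known for the rarer cell cycle genes. No pair of replicates was a duplicate, with chi-square values of 38.2 to 245 per degree of freedom. Alternatives were other scalings and filters, DESeq2 1.42.0, limma-voom, a block for the replicate number, a term for lane, a 90% overlap and leaving out each library. Leaving out the pair of libraries with the highest mitochondrial share was chosen after the data were seen.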

Additional observations from a re-analysis of the deposited data

How the results depend on the processing

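With 0 cell cycle genes called higher and 7 lower, other settings gave 1 higher with no filter and with DESeq2, and 0 to 1 without each library. Called lower were 3 with total-count scaling, 11 with DESeq2, 0 with a lane term, 4 without the 2 libraries of highest mitochondrial share, and 0 to 9 without each library. Of all genes, 179 were called higher and 179 lower. Total-count scaling, which shifted the median of all genes by 0.09, gave 80 higher and 55 lower, DESeq2 403 and 442, a lane term 1 and 2, and leaving out the 2 libraries of highest mitochondrial share 30 and 90. No filter gave 274 lower. Without each library 32 to 287 were higher and 36 to 247 lower. The cause of these changes was not tested. Fits without libraries use fewer samples, and the fit with a lane term takes the diet difference from lane 1 alone.

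Same-numbered libraries of the diets deviated together with r = 0.19, 0.27 and -0.07 across genes, so the numbers are not taken as a pairing. The replicate block gave 461 genes higher and 441 lower, and 1 cell cycle gene higher (Ccnd2) and 9 lower.

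With a lane term the estimates of Top2a (0.22), Cenpe (0.12), Mcm3 (0.20), Mcm6 (1.42), Rrm2 (0.046), Ccne1 (1.23) and Cdkn2c (0.31) and the S-phase median (0.046) turned positive. Pcna turned negative with median-ratio scaling (-0.0040), no filter (-2.5e-05), the CPM filter (-0.0079), DESeq2 (-0.0039) and without the 2 libraries of highest mitochondrial share (-0.35), and ranged from -0.13 to 0.21 without each library. Rrm1 became -0.33 without those 2 libraries and ranged from -0.14 to 0.22 without each library. Ccne1 ranged from -0.62 to 0.16 and Ccnd3 from -0.36 to 0.14. None of these genes was called over all libraries, and of them Mcm3 was called, as lower, without high-NaCl library 1 and without the 2 libraries of highest mitochondrial share. The ratio of summed levels, low over high, kept its direction in every alternative run for it: 0.349 to 0.439 for the mitotic, 0.843 to 0.932 for the S-phase and 0.543 to 0.609 for the G1 genes. Depth and the countable share limit what can be seen of the 14 untested genes.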
